A study of Mus musculus with 2 samples.

Results

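The 10 genes described here are the rows named mt-Nd1, mt-Nd2, mt-Nd4, mt-Nd4l, mt-Nd5, mt-Co1, mt-Co2, mt-Co3, mt-Cytb and mt-Atp6, found by symbol among 55450 gene rows. All 10 lie on the mitochondrial genome, which has 37 rows in the files. They were chosen by identity and not by level. mt-Nd3 was set aside because it shares its sequence with a nuclear copy. mt-Nd6 and mt-Atp8, which also encode respiratory chain subunits, are not among the 10 and are described separately below. The cells came from brains of C57BL/6 mice at day 3 of microglial repopulation and were sorted as CD11b high and CD45 low. The Hk2 cKO library came from Cx3cr1CreER::hk2 fl/fl mice, in which tamoxifen activates a Cre recombinase made from the locus of the fractalkine receptor gene, active in microglia and other myeloid cells. The Hk2 fl/fl library came from mice with the same floxed alleles and, as described, without this driver. The treatment protocol, given in the same words for both libraries, names 100 µg of tamoxifen on 2 days in a row at postnatal day 1 to 2, or another schedule not spelled out. Whether the fl/fl mice were injected, how many animals were pooled, their age at sorting, how microglia were depleted and which exons are floxed are not given in the sources used here. With 1 library for each genotype no difference below could be tested, and differences between genotypes, animals and library preparations cannot be told apart. Intervals are exact 95% intervals that cover counting error only.

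Mitochondria keep a small circular genome that encodes core subunits of the respiratory chain, while the other subunits come from nuclear genes. Both strands are copied as long transcripts that are cut, largely at the tRNAs, into mRNAs, rRNAs and tRNAs. In microglia, as in other cells, these subunits serve oxidative phosphorylation, whereas hexokinase 2, the product of Hk2, acts at the first step of glycolysis.

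The mitochondrial genome has partial copies in nuclear chromosomes, so a read from these genes may match more than 1 place. Every stretch of 91 bases was looked up in the other transcripts of the gene models (GENCODE M21, GRCm38). No stretch of mt-Nd1 or mt-Cytb occurred in another transcript, and 0.288% of those of mt-Nd5 and 4.11% of those of mt-Nd2 did. The copied stretches of mt-Nd2 all lay in its last 300 bases, where they made up 18.6%. The share was 33.1% for mt-Co1, including every stretch in its last 300 bases, and 61.0% for mt-Nd4, with none in its last 300 bases. In mt-Co2, mt-Co3, mt-Atp6 and mt-Nd4l, 99.5%, 99.9%, 99.5% and 98.6% of stretches occurred letter for letter in Gm28661, Gm28437, Gm10925 and Gm10222, all on the minus strand of chromosome 1 within one block. The levels of these 4 genes are therefore uncertain, as is that of mt-Co1, whose last 300 bases are copied throughout. To a lesser degree this holds for mt-Nd2. The sources used here do not give how reads with more than 1 match were counted.

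The first 60 bases of 2 such pairs are shown because one pair can be told apart by a single letter and the other cannot. The capital marks the letter that differs, position 3 counted from 1 at the 5′ end of the transcript (T3C), the single difference over the 345 bases compared. For mt-Nd4l and its copy no base differed over 294 bases. Sequences are from GENCODE M21 transcripts.
mt-Nd3 (chrM:9459-9518, plus strand): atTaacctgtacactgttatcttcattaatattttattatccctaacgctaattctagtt
Gm28438 (chr1:24613060-24613119, minus strand): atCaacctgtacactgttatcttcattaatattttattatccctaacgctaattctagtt
mt-Nd4l (chrM:9877-9936, plus strand): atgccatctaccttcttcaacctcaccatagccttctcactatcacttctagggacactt
Gm10222 (chr1:24612641-24612700, minus strand): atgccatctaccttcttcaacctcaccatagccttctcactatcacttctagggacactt

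The cKO library had 32896996 UMIs over 2607 barcodes, a median of 10532, and the fl/fl library 37476201 UMIs over 3089 barcodes, a median of 9233, with 2 barcodes shared. Cells passed with 500 genes or more and no more than 10% of UMIs from mitochondria, 2301 (88.3%) in the cKO and 2826 (91.5%) in the fl/fl library. Cells were clustered without any mitochondrial gene or nuclear copy, and 8 clusters with 1814 cKO and 2129 fl/fl cells were microglia-like by their markers. Levels are given as CPM, the UMIs of a gene per 1000000 UMIs of the sum. Hk2 measured 40.8 CPM in cKO and 163 CPM in fl/fl microglia-like cells, a log2 ratio of -1.97; a 3′ tag outside the deleted part would not check the deletion. Summed markers of other classes in these cells were 717 CPM in cKO and 667 CPM in fl/fl cells for 10 endothelial genes, 179 CPM and 169.6 CPM for 10 neutrophil genes, and 134 CPM and 78.5 CPM for 9 monocyte genes, and their part in the results was not tested. The 3 mast cell markers were at 0 UMIs in both.

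As a sum, the 10 mitochondrially encoded respiratory chain mRNAs took a smaller share of the RNA in cKO than in fl/fl microglia-like cells. The 10 genes summed to 391363 of 25906598 UMIs in cKO cells, or 1.51% (1.51 to 1.52), and to 512040 of 28797705 UMIs in fl/fl cells, or 1.78% (1.77 to 1.78). The log2 ratio of cKO over fl/fl was -0.24 (-0.24 to -0.23), 0.850 times the fl/fl share. The 2 mitochondrial rRNAs went the other way, at 1.35% in cKO and 1.17% in fl/fl cells, a log2 ratio of 0.20 (0.20 to 0.21). All 37 mitochondrial rows together differed little, with 2.88% in cKO and 2.98% in fl/fl cells. Within the mitochondrial total the lower share of the 10 mRNAs was thus largely offset by the rRNAs.

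Of the 10 genes, 9 had a lower and 1 a higher CPM in cKO cells. Among all 7800 measured genes, those with a mean of at least 10 CPM, 62.2% were lower, so most genes leaned the same way. The median log2 ratio was -0.14 over the 10 genes and -0.04 over all measured genes. Ratios of single genes are log2 of cKO over fl/fl after 1 CPM was added to each, which understates differences of genes at low level. A difference in which the higher value stood at least 25% above the lower was reached by mt-Nd1, on the lower side, as by 2.72% of measured genes. It was also reached by mt-Nd4l on the higher side, as by 3.37% of measured genes, but mt-Nd4l itself fell below 10 CPM and is not among them.

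**Figure D1:**
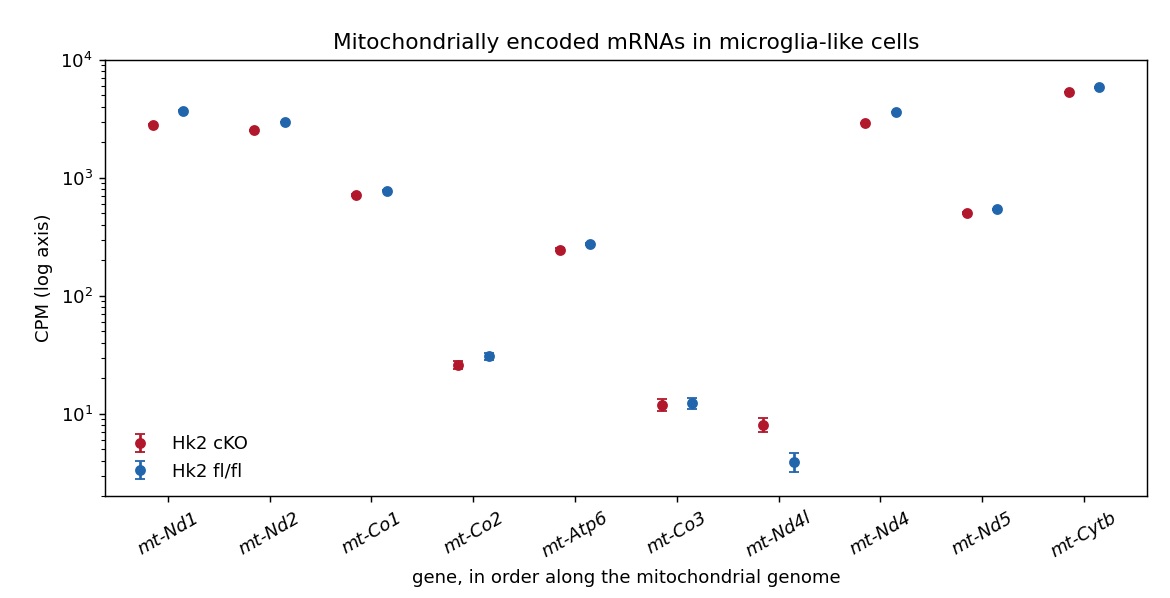
Level of each of the 10 mRNAs (CPM, log axis) in microglia-like cells of the Hk2 cKO library (red, left) and the Hk2 fl/fl library (blue, right), in the order of the genes along the mitochondrial genome. Bars are exact 95% Poisson intervals; mt-Nd4l is the 1 gene of the 10 with the higher point in the cKO library.

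Complex I, the NADH dehydrogenase that feeds electrons into the chain, has 5 of its subunits among these genes, and 4 of them were lower in cKO cells. mt-Nd1 (ENSMUSG00000064341, chromosome M, 2751 to 3707, plus strand), a core subunit of the membrane arm, had 73129 UMIs in cKO and 106703 in fl/fl cells. That is 2823 CPM (2802 to 2843) in cKO and 3705 CPM (3683 to 3728) in fl/fl cells, a log2 ratio of -0.39 and the widest lower value of the 10. mt-Nd4 (10167 to 11544), a proton-pumping subunit, measured 2908 CPM (2887 to 2928) in cKO and 3609 CPM (3587 to 3631) in fl/fl cells, a log2 ratio of -0.31. mt-Nd2 (3914 to 4951), another pumping subunit, measured 2523 CPM (2503 to 2542) in cKO and 2976 CPM (2956 to 2996) in fl/fl cells, a log2 ratio of -0.24. The counting intervals of these 3 abundant genes did not overlap between the libraries, but such intervals are narrow at these counts. The share of all measured genes whose intervals did not overlap was not computed.

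mt-Nd5 (11742 to 13565), the distal pumping subunit, differed less, with 502 CPM (493 to 511) in cKO and 541 CPM (532 to 549) in fl/fl cells, a log2 ratio of -0.11. mt-Nd4l (9877 to 10173), a small membrane subunit, was the exception. It had 209 UMIs, 8.07 CPM (7.01 to 9.24), in cKO and 112 UMIs, 3.89 CPM (3.20 to 4.68), in fl/fl cells, a log2 ratio of 0.89. Without an added CPM the ratio was 2.07-fold (1.64 to 2.63). Its nuclear copy Gm10222, identical over the bases compared above, had 4 UMIs in cKO and 2 in fl/fl cells. The mt-Nd4l frame overlaps the start of mt-Nd4 and both are carried on 1 mRNA, so a higher and a lower value stand on neighbouring frames. The summed share of the 5 complex I genes was 0.876% in cKO and 1.08% in fl/fl cells, a log2 ratio of -0.31.

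Complex III, the cytochrome bc1 complex, has 1 mitochondrially encoded subunit, the haem-binding cytochrome b. Its gene mt-Cytb (14145 to 15288) was the most abundant of the 10, with 5343 CPM (5315 to 5372) in cKO and 5848 CPM (5820.0 to 5876) in fl/fl cells, a log2 ratio of -0.13. It made up 35.4% of the 10-gene sum in cKO and 32.9% in fl/fl cells, while mt-Nd1 made up 18.7% in cKO and 20.8% in fl/fl cells. The sum thus shifted in makeup as well as in size.

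Complex IV, cytochrome c oxidase, has its 3 catalytic core subunits encoded here. mt-Co1 (5328 to 6872), which holds the haem and copper site where oxygen is reduced, measured 716 CPM (705 to 726) in cKO and 779.9 CPM (769.7 to 790.2) in fl/fl cells, a log2 ratio of -0.12. mt-Co2 (7013 to 7696), which takes electrons from cytochrome c, measured 26.1 CPM (24.2 to 28.2) in cKO and 30.6 CPM (28.6 to 32.7) in fl/fl cells, a log2 ratio of -0.22. mt-Co3 (8607 to 9390) measured 11.9 CPM (10.6 to 13.3) in cKO and 12.3 CPM (11.05 to 13.6) in fl/fl cells, a log2 ratio of -0.04 with overlapping intervals. No difference in mt-Co3 was detectable at 308 and 354 UMIs in cKO and fl/fl cells.

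Complex V, the ATP synthase, is represented by mt-Atp6 (7927 to 8607), the subunit beside the rotating ring through which protons pass. It measured 247 CPM (241 to 253) in cKO and 275 CPM (269 to 282) in fl/fl cells, a log2 ratio of -0.16. Its neighbour mt-Atp8 (7766 to 7969), whose frame overlaps that of mt-Atp6 on a shared mRNA, is not one of the 10 and went the other way, with 188 CPM (183 to 194) in cKO and 143 CPM (139 to 147) in fl/fl cells, a log2 ratio of 0.40. In each of the 2 mRNAs that carry a pair of frames, the upstream frame was higher and the downstream frame lower in cKO cells. No stretch of mt-Atp8 occurs in another gene model, in contrast to mt-Nd4l, but sequence outside the gene models was not searched.

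The other mitochondrial genes outside the 10 did not follow them either. mt-Nd6 (13552 to 14070), the complex I gene on the minus strand, measured 36.7 CPM (34.4 to 39.2) in cKO and 28.5 CPM (26.6 to 30.6) in fl/fl cells, a log2 ratio of 0.35. The rRNA genes mt-Rnr1 and mt-Rnr2 had log2 ratios of 0.17 and 0.21, the last at 11355 CPM in cKO and 9804 CPM in fl/fl cells. mt-Rnr2 lies next to mt-Nd1 on the same strand, with mt-Rnr1 upstream of mt-Rnr2, and mt-Nd1 held the widest lower ratio. A link between these values was not tested. The 22 tRNA rows summed to 388 UMIs in cKO and 431 in fl/fl cells, a log2 ratio of 0.00 (-0.20 to 0.20).

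Levels differed far more between the 10 genes than between the libraries. The highest level was 662 times the lowest in cKO and 1504 times in fl/fl cells. Per kilobase of transcript, mt-Cytb stood at 4671 CPM in cKO and 5112 CPM in fl/fl cells, followed in both libraries by mt-Nd1, mt-Nd2, mt-Nd4, mt-Co1, mt-Atp6, mt-Nd5 and mt-Co2. At the low end mt-Nd4l stood at 27.2 CPM per kilobase and mt-Co3 at 15.2 in cKO cells, while in fl/fl cells mt-Nd4l stood at 13.1 and mt-Co3 at 15.7. That was the 1 place where the order of the 10 differed between the libraries, and in fl/fl cells the counting intervals of these 2 genes overlapped. Counts of 3′ tags need not scale with length, so this order describes the libraries rather than the number of molecules. The 4 genes with 98.6% or more of their stretches in nuclear models were the 4 of lowest level in CPM, and whether their copies set those levels was not tested.

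**Figure D2:**
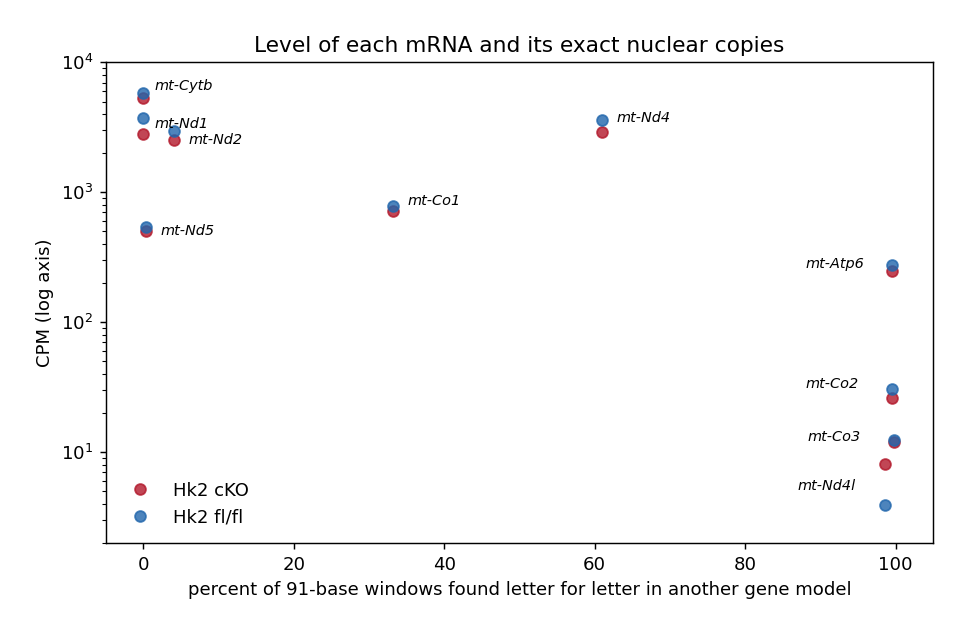
Level of each of the 10 mRNAs in microglia-like cells (CPM, log axis) against the percent of its 91-base stretches found letter for letter in another gene model, for Hk2 cKO (red) and Hk2 fl/fl (blue). mt-Atp6, mt-Co2, mt-Co3 and mt-Nd4l sit at the right, at 275 CPM or less.

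Across the 8 microglia-like clusters the summed share was lower in the cKO library in all 8. Log2 ratios ran from -0.31 in cluster 1, led by the RNA genes Gm26917 and Snhg12, to -0.14 in cluster 8, led by the division genes Cdk1, Ube2c and Tyms. In cluster 9, the largest by UMIs and led by Il12b, Cxcl2 and Ccl7, the share was 1.64% in 370 cKO and 1.94% in 476 fl/fl cells. In cluster 0, led by Abca1, Rrad and Neurl3, it was 1.17% in 380 cKO and 1.40% in 494 fl/fl cells. In cluster 11, led by the interferon-induced genes Ifit3 and Rsad2 and holding 227 cKO and 81 fl/fl cells, it was 1.46% in cKO and 1.74% in fl/fl cells. The range over clusters within a library was 1.12% to 1.76% in cKO and 1.38% to 1.94% in fl/fl cells, wider than the gap between the 2 sums.

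The libraries held the clusters in different proportions, and the difference was as large at an equal mix. With every cluster given the same weight in both libraries, the share was 1.46% in cKO and 1.73% in fl/fl cells, a log2 ratio of -0.24. The rRNA share was then 1.37% in cKO and 1.22% in fl/fl cells, a log2 ratio of 0.17. Cluster 3, with 188 cKO and 335 fl/fl cells (8.17% and 11.9% of kept cells), stayed unnamed because the antibody gene Igkc led it, although microglial markers were detected in 89.8% of its cells on average. Its share was 1.69% in cKO and 2.15% in fl/fl cells, a log2 ratio of -0.34.

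Single genes kept their direction over clusters to different degrees. mt-Nd1, mt-Nd2, mt-Nd4, mt-Co1 and mt-Atp6 were lower in cKO cells in all 8 clusters, with mt-Nd1 between -0.48 and -0.27 and mt-Nd4 between -0.41 and -0.22. mt-Cytb and mt-Co2 were lower in 7 of 8, and mt-Nd5 in 6 of 8. The exception for mt-Cytb was cluster 8, at 6569 CPM (6472 to 6666) in cKO and 6206 CPM (6079 to 6336) in fl/fl cells. mt-Co3 was lower in 2 and higher in 6 clusters, with log2 ratios between -0.71 and 0.60 on 60 UMIs or fewer per library in each of the widest. mt-Nd4l was higher in all 8, between 0.42 and 1.31, again on few UMIs. The rRNA sum was higher in 7 of 8 clusters, from -0.09 in cluster 10, led by Ccnb2 and Cenpa, to 0.45 in cluster 8.

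**Figure D3:**
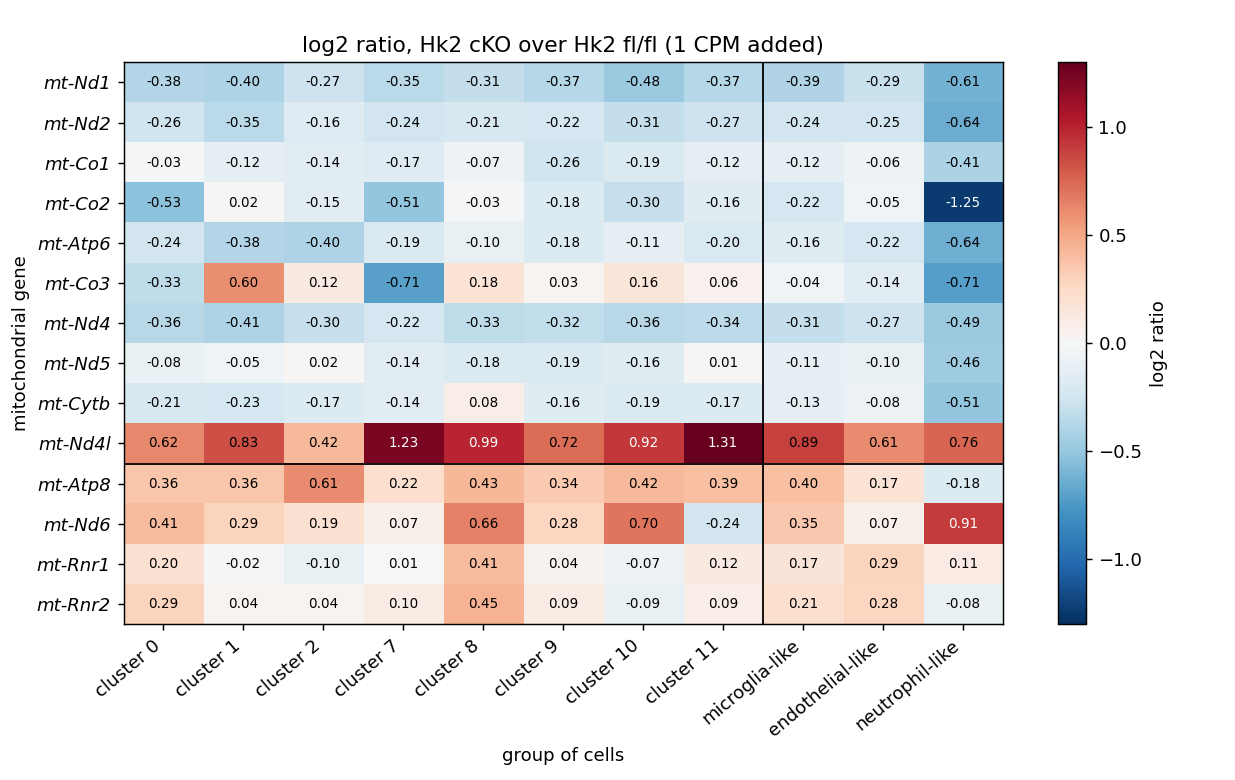
Log2 ratios of Hk2 cKO over Hk2 fl/fl, after 1 CPM was added, for the 10 mRNAs (above the line) and 4 other mitochondrial genes (below it) in each microglia-like cluster, in all microglia-like cells and in the endothelial-like and neutrophil-like classes. Blue marks lower and red higher values in the cKO library; the mt-Nd1 row runs from -0.48 to -0.27 over the clusters.

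Cells outside the microglia-like class showed the same direction for the sum. In endothelial-like cells the share was 1.76% in 100 cKO and 2.01% in 62 fl/fl cells, a log2 ratio of -0.19 (-0.22 to -0.16). There 9 of the 10 genes were lower, but the counting intervals of mt-Nd5, mt-Co1, mt-Co2, mt-Co3 and mt-Atp6 included 0. The share of all genes lower in this class was not computed. In neutrophil-like cells, whose top genes were S100a8 and S100a9, it was 0.704% in 89 cKO and 1.02% in 82 fl/fl cells, a log2 ratio of -0.54 (-0.58 to -0.50). Per cell the neutrophil-like median was 0.197% (quartiles 0.0853% and 0.566%) in cKO and 0.482% (0.147% and 1.07%) in fl/fl cells, and the summed share of the cKO cells lay above their upper quartile. In monocyte-like cells the summed share was 0.777% in 21 cKO and 1.28% in 64 fl/fl cells, a log2 ratio of -0.72 (-0.80 to -0.64). Among these classes the order of the shares within each library was endothelial-like, microglia-like, then monocyte-like and neutrophil-like. Smaller classes are left out of this order. Choroid or ependymal-like cells held 3.26% in 6 cKO and 3.36% in 13 fl/fl cells. Osteoclast type-like cells held 2.02% in 22 cKO and 2.60% in 16 fl/fl cells, and pericyte or muscle-like cells 1.53% in 9 cKO and 2.63% in 21 fl/fl cells.

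These classes also held microglial RNA, which was not equal between the libraries in every class. The microglial genes Fcrls, P2ry12, Siglech and Tmem119 added up to 1947 CPM in cKO and 2046 CPM in fl/fl endothelial-like cells and to 1201 CPM and 1242 CPM in neutrophil-like cells, against 2722 CPM and 2659 CPM in microglia-like cells. In monocyte-like cells the same sum was 22.2 CPM in cKO and 985 CPM in fl/fl cells. In cells with no UMI of these 4 markers the share was 0.187% in 57 cKO and 0.325% in 34 fl/fl neutrophil-like cells, and 0.849% in 17 cKO and 0.980% in 34 fl/fl monocyte-like cells. The log2 ratio in such neutrophil-like cells was -0.80 (-0.94 to -0.65) and in such monocyte-like cells -0.21 (-0.31 to -0.11). In 19 cKO and 7 fl/fl endothelial-like cells without these UMIs it was -0.07 (-0.23 to 0.09).

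**Figure D4:**
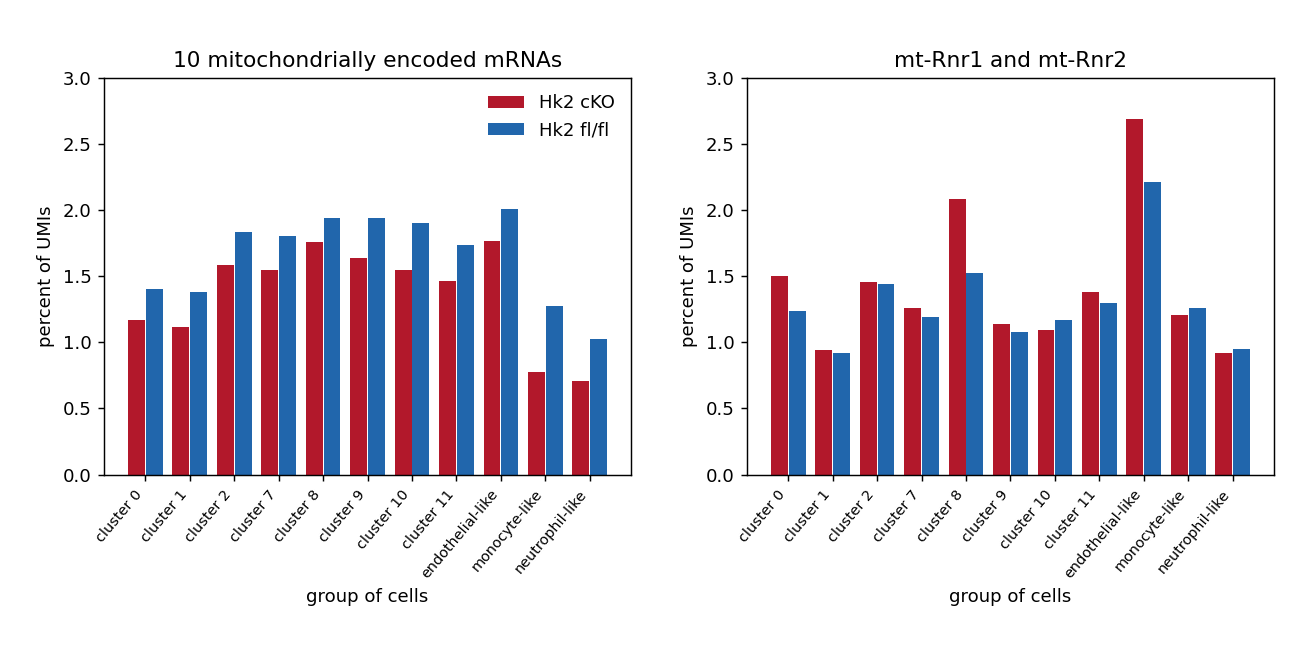
Percent of UMIs in the 10 mRNAs (left panel) and in the 2 mitochondrial rRNAs (right panel) in the summed counts of each microglia-like cluster and of 3 other classes, Hk2 cKO (red, left bar) and Hk2 fl/fl (blue, right bar). Every cKO bar is below its fl/fl bar on the left; on the right the cKO bar is the higher in 7 of 8 microglia-like clusters and in endothelial-like cells.

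Within the microglia-like class the share varied widely from cell to cell. Per cell, the 10 genes took a median of 1.41% (quartiles 1.00% and 1.83%) in cKO and 1.63% (1.12% and 2.11%) in fl/fl cells, at a median of 165 UMIs of these genes per cKO cell and 172 per fl/fl cell. Cells with over 2% were 18.3% of cKO and 29.5% of fl/fl cells. The rRNAs had medians of 1.24% in cKO and 1.04% in fl/fl cells. The 2 distributions overlapped over most of their range for both measures.

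**Figure D5:**
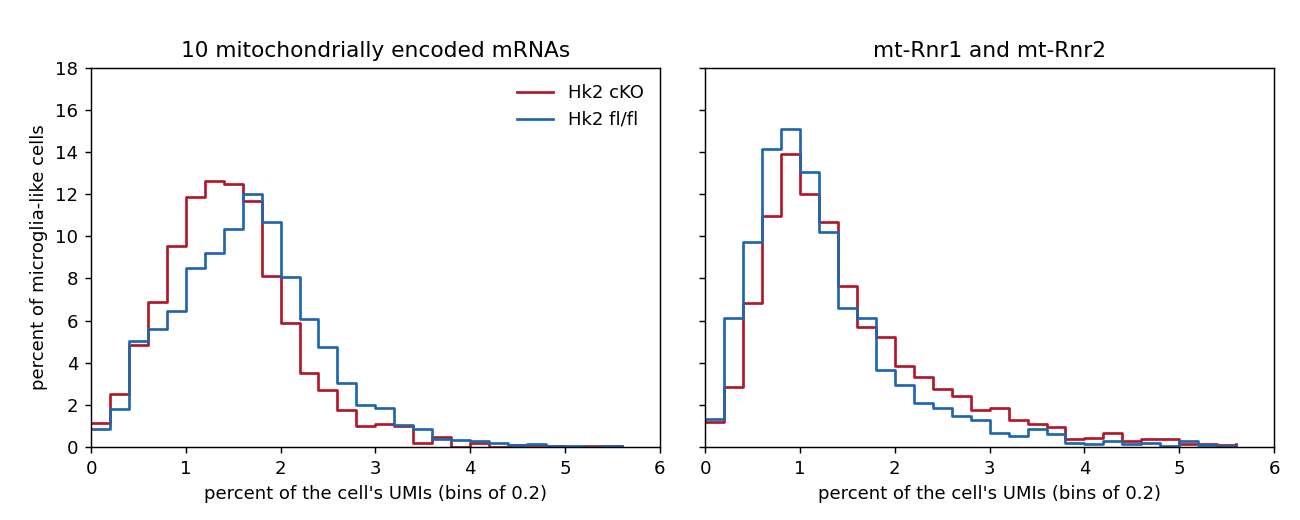
Percent of microglia-like cells (y axis) by the percent of a cell's UMIs in the 10 mRNAs (left panel) or the 2 mitochondrial rRNAs (right panel), in bins of 0.2, for Hk2 cKO (red) and Hk2 fl/fl (blue). The cKO curve lies to the left for the mRNAs (median 1.41% against 1.63%) and to the right for the rRNAs (1.24% against 1.04%).

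The difference depended on how many UMIs a cell held. In cells with 10000 to 20000 UMIs the share was 1.45% in 767 cKO and 1.83% in 729 fl/fl cells, a log2 ratio of -0.33. In cells with 20000 or more it was 1.61% in 358 cKO and 1.89% in 366 fl/fl cells, a log2 ratio of -0.23, and with 5000 to 10000 it was 1.39% in 528 cKO and 1.52% in 851 fl/fl cells, a log2 ratio of -0.13. In the shallowest cells, under 5000 UMIs, the direction turned, with 1.57% in 161 cKO and 1.43% in 183 fl/fl cells, a log2 ratio of 0.14 (0.10 to 0.18). There 8 of the 10 genes were higher in cKO cells, and the share of all genes higher in such cells was not computed. The rRNA ratio was positive at every depth and largest, 0.50, in these shallow cells. Of 7 clusters with such cells in both libraries, the share was higher in cKO cells in clusters 0 (0.15), 1 (0.24), 2 (1.01) and 7 (0.36) and lower in clusters 8 (-0.07, counting interval -0.17 to 0.04), 9 (-0.45) and 10 (-2.95), all as log2 ratios. Clusters 2, 7 and 10 held few of these cells, such as 3 cKO and 10 fl/fl cells in cluster 10. Cluster 8 held 52 of the shallow cKO and 15 of the shallow fl/fl cells.

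Division state did not separate the libraries by direction. Cells were thinned to 5000 UMIs, leaving out 161 cKO and 183 fl/fl shallower cells. A cell counted as positive for a phase when 3 or more of that phase's 12 genes had a UMI. Cells could be positive for both phases, so the G2/M-positive and S-positive groups share cells. In 491 cKO and 746 fl/fl cells positive for G2/M genes the share, on all their UMIs, was 1.60% in cKO and 1.86% in fl/fl cells, a log2 ratio of -0.22. In 527 cKO and 649 fl/fl cells positive for S genes it was 1.56% in cKO and 1.83% in fl/fl cells, a log2 ratio of -0.23. In 884 cKO and 913 fl/fl cells positive for neither it was 1.43% in cKO and 1.70% in fl/fl cells, a log2 ratio of -0.25. In both libraries the share was thus higher in cells positive for G2/M genes than in those positive for neither. The G2/M-positive cells were also deeper, at a median of 14352 UMIs against 11884.5 in cKO and 13622 against 9064 in fl/fl cells. The part of depth in this difference was not tested.

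The libraries also differed in which of the near-identical mt-Nd3 and Gm28438 rows collected the counts. mt-Nd3 measured 2.01 CPM in cKO and 139 CPM in fl/fl microglia-like cells, and Gm28438 measured 274 CPM in cKO and 58.3 CPM in fl/fl cells. Among cKO cells 1534 had UMIs of Gm28438 alone and 4 of mt-Nd3 alone. Among fl/fl cells 422 had Gm28438 alone and 1015 had mt-Nd3 alone, while 213 had both. These groups were defined after the counts of this pair were known. Whether the reads on either row came from the mitochondrial or the nuclear sequence was not tested.

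The sum of the 10 genes was lower in cKO cells against either kind of fl/fl cell. Against those with Gm28438 alone 8 of the 10 were lower, and against those with mt-Nd3 alone 9 of the 10. The share of all genes lower in these comparisons was not computed. mt-Nd4l was higher in both comparisons, and mt-Co3 was higher in the first, at 0.15 (-0.27 to 0.59). cKO cells with Gm28438 alone held 1.56%, against 1.78% in fl/fl cells with Gm28438 alone, a log2 ratio of -0.19 (-0.20 to -0.18), and against 1.87% in fl/fl cells holding mt-Nd3 alone, a log2 ratio of -0.26 (-0.27 to -0.25). Within the fl/fl library the ratio of cells with Gm28438 alone over cells with mt-Nd3 alone was -0.07 (-0.08 to -0.06). Entry to these groups required a UMI of mt-Nd3 or Gm28438, so cells with neither were left out. The share in cells with neither was lower, at 0.848% in 229 cKO and 1.18% in 479 fl/fl cells. Their median depth was 7038 UMIs in cKO and 6818 in fl/fl cells. It was 12978.5 in cKO and 11227.5 in fl/fl cells with Gm28438 alone, and 11165 in fl/fl cells with mt-Nd3 alone. The part of this selection in the ratios was not tested. mt-Nd1 kept its size, with 2922 CPM in cKO and 3864 CPM in fl/fl cells among cells with Gm28438 alone, a log2 ratio of -0.40. mt-Nd4 had -0.21 there and -0.35 against the mt-Nd3 kind of fl/fl cell. mt-Atp6 had -0.06 (-0.15 to 0.02) among cells with Gm28438 alone, an interval that includes 0, and -0.24 (-0.29 to -0.18) against the mt-Nd3 kind. Outside microglia the cKO library had no cell with mt-Nd3 alone in 3 other classes, while Gm28438 alone was seen in 88 of 100 endothelial-like, 14 of 21 monocyte-like and 35 of 89 neutrophil-like cells. In the fl/fl library mt-Nd3 alone was seen in 38 and Gm28438 alone in 3 of 62 endothelial-like cells, and in 23 and 9 of 82 neutrophil-like cells. In fl/fl monocyte-like cells the order was the other way, with mt-Nd3 alone in 15 and Gm28438 alone in 20 of 64 cells.

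Nuclear-encoded partners of these subunits differed little between the libraries. Of 36 measured complex I genes 17 were lower and 19 higher in cKO cells, with a median log2 ratio of 0.02. Of 4 complex II genes 2 were lower (median -0.00), of 9 complex III genes 7 (median -0.02) and of 11 complex IV genes 5 (median 0.01). Of 14 measured ATP synthase genes 12 were lower, with a median of -0.05, beside 62.2% lower among all measured genes. None of these nuclear genes reached a difference of 25%, which 6.09% of measured genes reached in either direction. The nuclear complex I gene furthest from level was Ndufs3, at 67.8 CPM in cKO and 57.3 CPM in fl/fl cells, a log2 ratio of 0.24. The summed nuclear complex I genes stood at 5638 CPM in cKO and 5648 CPM in fl/fl cells, beside the 0.876% and 1.08% of UMIs of the mitochondrially encoded ones.

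Of 30 nuclear genes for transcription and handling of mitochondrial RNA, 21 were measured, 10 of them lower and 11 higher in cKO cells, with a median of 0.01. Esrra, a nuclear receptor that acts on mitochondrial genes of the nucleus, was lower past 25%, with 16.5 CPM (14.99 to 18.2) in cKO and 22.8 CPM (21.1 to 24.6) in fl/fl cells, a log2 ratio of -0.44. Pnpt1, the mitochondrial polynucleotide phosphorylase that degrades RNA, was higher, with 14.7 CPM (13.3 to 16.3) in cKO and 11.6 CPM (10.4 to 12.9) in fl/fl cells, a log2 ratio of 0.33. Grsf1, a protein of mitochondrial RNA granules, measured 21.1 CPM in cKO and 25.9 CPM in fl/fl cells, a log2 ratio of -0.28.

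RNAs listed for RNA quality differed between the libraries, not all in the same direction. Of 5 RNAs listed as markers of nuclear RNA and RNA quality 4 were measured, of which 3 were lower and 1 higher in cKO microglia-like cells, and the 5 summed to 8360 CPM in cKO and 8096 CPM in fl/fl cells. Rn7sk measured 10.3 CPM in cKO and 19.6 CPM in fl/fl cells, and Gm26917 258 CPM in cKO and 373 CPM in fl/fl cells. Both are among the top genes of cluster 1, which held 109 cKO and 262 fl/fl cells. Their values at an equal mix of clusters were not computed. Neat1 measured 567 CPM in cKO and 653 CPM in fl/fl cells. Malat1, named after its values were seen and making up most of the sum, was the higher one, at 7525 CPM in cKO and 7049 CPM in fl/fl cells. Barcodes above the 10% mitochondrial limit, left out of all values above, were 294 in the cKO library (11.3%, 10.1 to 12.6) and 241 in the fl/fl library (7.80%, 6.88 to 8.80). Of 7 measured genes known to respond to tissue dissociation none reached 25%. The part of RNA quality in the values of the 10 genes was not tested.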

How the data were processed

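The deposited files hold raw UMI counts per gene and barcode, which the authors made with bcl2fastq and Cell Ranger 3.1.0 on GRCm38, per the submitters' processing notes. No normalization had been applied, and libraries were 10x 3′ v3, per the labels' protocols. All 55450 gene identifiers match GENCODE M21, which gave coordinates and transcripts. Genotypes came from the genotype label. The 10 genes, the marker lists and the other lists were chosen with earlier results of these data known.

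The filter on barcodes asked for 500 genes or more and allowed 10% mitochondrial UMIs. Mitochondrial genes and their nuclear copies were removed, 2000 variable genes and 30 principal components taken, and cells clustered by Leiden on 15 neighbours at resolution 0.8 (scanpy 1.11.5, igraph 0.11.9). A cluster got another class's name with at least 3 of its markers in 25% of cells and 4-fold above other cells, and was called microglia-like when the 16 microglial markers averaged 80% detection and no other class led. These thresholds were set with clusters known. Scrublet marked 1 cKO and 2 fl/fl cells, so it had not worked and doublets remain; an alternative removed the 42 cKO and 64 fl/fl cells of highest score.

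UMIs were summed over cells per library and divided by the total to CPM, with exact Poisson intervals; ratios of sums have exact conditional binomial intervals. All intervals cover counting error only. Since 1 library per genotype was available, no test was run. Named genes were the 10 members, other mitochondrial mRNAs and rRNAs, nuclear copies, Hk2 and up to 3 genes per list furthest from level. Depth was 25906598 UMIs in cKO and 28797705 in fl/fl microglia-like sums, and the spread between animals was not measured. The computation was checked on simulated counts. Alternatives covered TMM scaling (edgeR 4.0.16, R 4.3.3), cell filters, resolution, thinning, per-cell means and subsets of cells. The scripts used matplotlib 3.10.9, pandas 2.3.3, scipy 1.17.1 and numpy 2.4.6 in Python 3.11.15.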

Additional observations from a re-analysis of the deposited data

Results flagged for a closer look

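mt-Cytb differed between groups of cells in its direction: its log2 ratio of cKO over fl/fl was 0.082 (0.05 to 0.12) in the microglia-like cluster 8, led by Cdk1 and Ube2c, and -0.511 (-0.58 to -0.44) in neutrophil-like cells. These groups were picked as the highest and the lowest with counting intervals wholly above and wholly below an equal level, so their intervals could not overlap. Such pairs were not looked for among other nuclear or mitochondrial genes. With 1 library per genotype the difference between the groups was not tested.

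The ratio of the 10-gene sum differed with the depth of the cells, from 0.140 (0.10 to 0.18) in microglia-like cells under 5000 UMIs to -0.329 (-0.34 to -0.32) in those with 10000 to 20000 UMIs. These depth groups were picked by the same rule, and the difference between them was not tested either.

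Among barcodes left out by the mitochondrial limit, 11.3% of the cKO and 7.80% of the fl/fl barcodes, the 10 genes took a median of 13.9% of UMIs in cKO and 10.5% in fl/fl barcodes. The rRNAs took 31.2% in cKO and 18.9% in fl/fl barcodes. Median depth was 1036.5 UMIs in cKO and 1026 in fl/fl barcodes.

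Gm28438, the nuclear copy of mt-Nd3, measured 274 CPM in cKO and 58.3 CPM in fl/fl microglia-like cells. Both mt-Nd3 and its copy stand outside the 10 genes. No other nuclear copy on chromosome 1 measured above 6.37 CPM in cKO or 4.83 CPM in fl/fl cells. Gm28438 and mt-Nd3 differ at a single letter, and which of them the counts came from was not tested.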

How the results depend on the processing

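The summed log2 ratio of the 10 genes, -0.24, was below 0 in 17 of 18 alternatives. It was 0.14 in cells under 5000 UMIs, an alternative chosen after seeing the data. It was -0.18 as the mean of per-cell CPM, -0.19 for cells with Gm28438 alone in both libraries, -0.20 after thinning to 5000 UMIs, and -0.21 both with TMM scaling and over all deposited barcodes. It was -0.25 at resolution 1.5 and for cells positive for neither G2/M nor S genes, and -0.26 with a mitochondrial limit of 5% or 20%, with mitochondrial genes kept in the clustering, for cKO cells holding Gm28438 alone against fl/fl cells holding mt-Nd3 alone, and with the unnamed cluster 3 included (also chosen after seeing the data). It was -0.27 with no mitochondrial limit and at resolution 0.4.

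The number of the 10 genes higher in cKO cells, 1, was 8 in cells under 5000 UMIs. It was 2 with per-cell means, thinning, resolution 1.5, Gm28438 alone in both libraries and cells positive for neither phase. The share of all genes higher was not computed for these alternatives. In cells under 5000 UMIs the log2 ratio turned for mt-Atp6 (0.42), mt-Co1 (0.11), mt-Co2 (0.094), mt-Cytb (0.30), mt-Nd2 (0.19), mt-Nd5 (0.16) and mt-Co3 (1.40). mt-Co3 turned also with Gm28438 alone in both libraries (0.14), per-cell means (0.055), thinning (0.043), cells positive for neither phase (0.013) and resolution 1.5 (0.0026). The cause of these turns was not tested. The rRNA sum stayed above 0 in all 18 alternatives, from 0.11 to 0.50.

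By class, the endothelial-like ratio was -0.22 with a limit of 20%, and the monocyte-like ratio was -0.53 with a limit of 20% (-0.526) and with no limit (-0.533). By phase, the G2/M-positive ratio was -0.20 with 5 of 12 genes and the S-positive ratio -0.21 at 2500 UMIs.

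No paired analysis was possible because each genotype has 1 library and no replicate to leave out. Counting depth limits mt-Co2, mt-Co3 and mt-Nd4l, and sequence shared with nuclear models limits these and mt-Atp6. Such sequence also limits mt-Co1 and, to a lesser degree, mt-Nd2 in their last 300 bases.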

Other observations

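Over 16 profiles, the 8 microglia-like clusters in each library, the log2 level of the 10-gene sum was compared with that of 2960 genes at a mean of at least 50 CPM. The profiles share 2 libraries and differ in depth, so these correlations are descriptions. The closest were Rpl4 (Pearson's r 0.92), Wdr89 (0.90), Rpl14 (0.89) and Rpsa (0.89), and 6 of the closest 8 encode ribosomal proteins. Rpl4 measured 951 CPM in cKO and 1095 CPM in fl/fl microglia-like cells, and Rpl14 measured 1104 CPM in cKO and 1357 CPM in fl/fl cells. All ribosomal protein genes together took 14.8% of UMIs in cKO and 15.3% in fl/fl cells. The most opposed were F11r (-0.90) and Tpst2 (-0.88). mt-Rnr2, from the same genome, had 0.26.

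Over the same profiles mt-Cytb and mt-Atp6 followed each other most closely among the 10 genes (r 0.94), then mt-Nd5 and mt-Co1 (0.93) and mt-Nd1 and mt-Nd2 (0.92). mt-Nd4l ran against mt-Nd4 (-0.54), the gene that shares its mRNA. In all 8 clusters mt-Nd4l was higher and mt-Nd4 lower in cKO cells, so the gap between the libraries enters this value. It also rests on 58 UMIs or fewer of mt-Nd4l per profile.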
